A study of Mus musculus with 4 samples.

Results

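The comparison described here set bone marrow-derived macrophages that lack Stat6 against wild-type macrophages, both cultured with the cytokine IL-4. It rests on 2 of the 4 arrays of the study, 1 for each genotype, and on all genes that the arrays could name. A gene was taken from probesets with exactly 1 gene symbol, and where several probesets named it, the brightest on average over the 4 arrays was used. This gave 19938 genes from 21789 of the 35557 probesets. Of these genes, 10433 had a signal at or above a floor of 2.52 on at least 1 of the 2 arrays and could be tested against the rule of size.

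Wild-type bone marrow was from BALB/c mice and deficient bone marrow from mice of the strain 4get/Stat6-/-. 4get is a reporter allele of the Il4 gene, so the genotypes differ in that allele as well as in Stat6. All cells had been grown from bone marrow for 7 days with supernatant of L929 cells, a fibroblast line that secretes M-CSF, the growth factor of macrophages. They were then replated, kept for 24 h with IL-4 or in medium, and F4/80-positive cells, which carry a surface protein of macrophages, were sorted. The dose of IL-4 is 10 µg/mL in the sample protocols and 10 mg/mL in the series text, and the labels do not settle the unit. Age and number of the mice, and any pooling of them, are not given in the sources here. With 1 array a group no value has a replicate check, no p-value was computed, and precision is limited by the number of arrays.

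IL-4 binds a receptor whose chains include Il4ra, and Janus kinases at that receptor phosphorylate STAT6, which pairs, enters the nucleus and binds DNA. In macrophages this pathway is known for alternative activation, a state marked by arginase, resistin-like and chitinase-like proteins, lectins and a set of chemokines. Interferons raise many of their genes through a DNA site called the interferon-stimulated response element.

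Signals are given on the log2 scale, on which a difference of 1 is 2-fold. Differences are Stat6-/- minus wild type, so a negative value means a lower signal without Stat6. A gene passed the rule of size where the log2 difference was at least 1 either way and the brighter array reached the floor. Where the signals of a genotype are given as a pair, the first is without and the second with IL-4. Where the dimmer array lay under the floor, the fold is a lower bound computed against the floor and is written as at least that many fold.

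Promoter sequences were examined for the site types of these factors. STAT6 binds the letters TTC and GAA with 4 bases of any kind between them, other STATs prefer a spacing of 3 bases (TTCNNNGAA), and GAAA, 2 bases of any kind and GAAA again make the core of the interferon-stimulated response element. The 3 sequences that follow are the 250 bases before the start of genes that were lower in Stat6-/-, the 3 with the largest differences among the named genes with a match of the STAT6 type in that stretch. They are written 5′ to 3′ along the gene, from the RefSeq promoter table of build GRCm38.p6, with the match in capitals.
Retnla: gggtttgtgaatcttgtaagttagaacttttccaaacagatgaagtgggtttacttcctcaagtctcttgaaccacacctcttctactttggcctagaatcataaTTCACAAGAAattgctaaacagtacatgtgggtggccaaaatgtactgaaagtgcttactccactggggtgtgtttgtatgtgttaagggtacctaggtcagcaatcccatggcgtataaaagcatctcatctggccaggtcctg
Itgax: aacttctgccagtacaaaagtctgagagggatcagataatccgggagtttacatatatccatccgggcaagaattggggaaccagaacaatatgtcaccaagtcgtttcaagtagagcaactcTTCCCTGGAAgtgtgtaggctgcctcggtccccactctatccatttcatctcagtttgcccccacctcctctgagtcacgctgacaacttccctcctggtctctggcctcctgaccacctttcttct
Pdcd1lg2: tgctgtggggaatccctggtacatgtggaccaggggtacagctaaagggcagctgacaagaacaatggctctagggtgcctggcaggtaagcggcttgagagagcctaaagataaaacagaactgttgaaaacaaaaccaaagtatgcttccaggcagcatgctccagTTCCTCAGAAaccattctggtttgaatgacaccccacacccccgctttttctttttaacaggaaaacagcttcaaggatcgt
The Retnla stretch is chr16:48842359-48842608, the Itgax stretch chr7:128129300-128129549 and the Pdcd1lg2 stretch chr19:29410669-29410918, all on the plus strand. Counted from the base before the gene's start as -1, the matches begin at -145 in Retnla, -127 in Itgax and -82 in Pdcd1lg2.

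The next 3 sequences are from genes that were higher in Stat6-/-, again those with the largest differences among the named genes with a match of the response element core, which is in capitals. In Ifit3 the core lies on the other strand, so the letters printed are TTTC, 2 bases and TTTC.
Ifit3: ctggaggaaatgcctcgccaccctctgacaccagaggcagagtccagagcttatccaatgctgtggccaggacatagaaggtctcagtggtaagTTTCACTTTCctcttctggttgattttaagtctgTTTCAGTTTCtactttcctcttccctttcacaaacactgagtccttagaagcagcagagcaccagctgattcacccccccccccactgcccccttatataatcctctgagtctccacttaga
Fcgr4: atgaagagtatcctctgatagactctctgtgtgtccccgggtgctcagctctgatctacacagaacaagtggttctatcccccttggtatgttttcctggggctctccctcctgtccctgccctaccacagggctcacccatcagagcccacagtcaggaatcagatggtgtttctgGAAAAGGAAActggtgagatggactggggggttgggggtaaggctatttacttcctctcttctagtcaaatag
Cxcl10: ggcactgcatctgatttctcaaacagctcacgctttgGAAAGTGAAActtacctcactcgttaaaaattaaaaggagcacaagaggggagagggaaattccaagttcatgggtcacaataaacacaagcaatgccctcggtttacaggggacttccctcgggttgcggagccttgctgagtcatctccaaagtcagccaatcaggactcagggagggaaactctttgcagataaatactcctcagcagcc
The Ifit3 stretch is chr19:34583279-34583528 on the plus strand, with 2 matches that begin at -156 and -122. The Fcgr4 stretch is chr1:171018676-171018925 on the plus strand, with a match at -73. The Cxcl10 stretch is chr5:92348890-92349139 on the minus strand, with a match at -213.

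Over all genes, both strands of the 300-base windows (250 bases before to 50 after each start) were searched for the 3 motifs, and a gene counted if any of its windows held a match. RefSeq windows were matched for 15614 of the 19938 genes. The response element core was found for 321 of 8427 genes tested that had a window, which is 3.81%, and for 3.89% of all genes with a window. It was found for 44 of 339 genes higher in Stat6-/-, or 13%, and for 9 of 408 genes lower in Stat6-/-, or 2.21%. Among the genes higher by at least 2 on the log2 scale the share was 25.9%, or 14 of 54. Of the 44 genes, 9 stood in the list of interferon-stimulated genes and 35 did not, among them Fcgr4, the GTPase gene Gbp7 and the acute phase gene Saa3. That list is a selection, and the 35 include relatives of its members, such as Gbp7, Gbp5, Slfn8, Ifi207 and Trim30d. Standing outside the list therefore does not set a gene apart from the interferon response.

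The STAT6 type was found for 7.29% of all genes with a window, 6.41% of the genes tested, 7.60% of the lower genes (31 of 408) and 6.19% of the higher genes (21 of 339). It was found for 6 of the 53 genes lower by at least 2, or 11.3%. The type with a spacing of 3 was found for 8.99% of all genes with a window, 7.95% of the genes tested, 8.33% of the lower and 11.2% of the higher genes. For the genes lower by at least 2 its share was the same as that of the STAT6 type, 6 of 53 or 11.3%. The higher genes had 1.31 windows each and the genes tested 1.27. A match is a description of the letters, not of binding, and sites outside the windows were not searched.

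**Figure D1:**
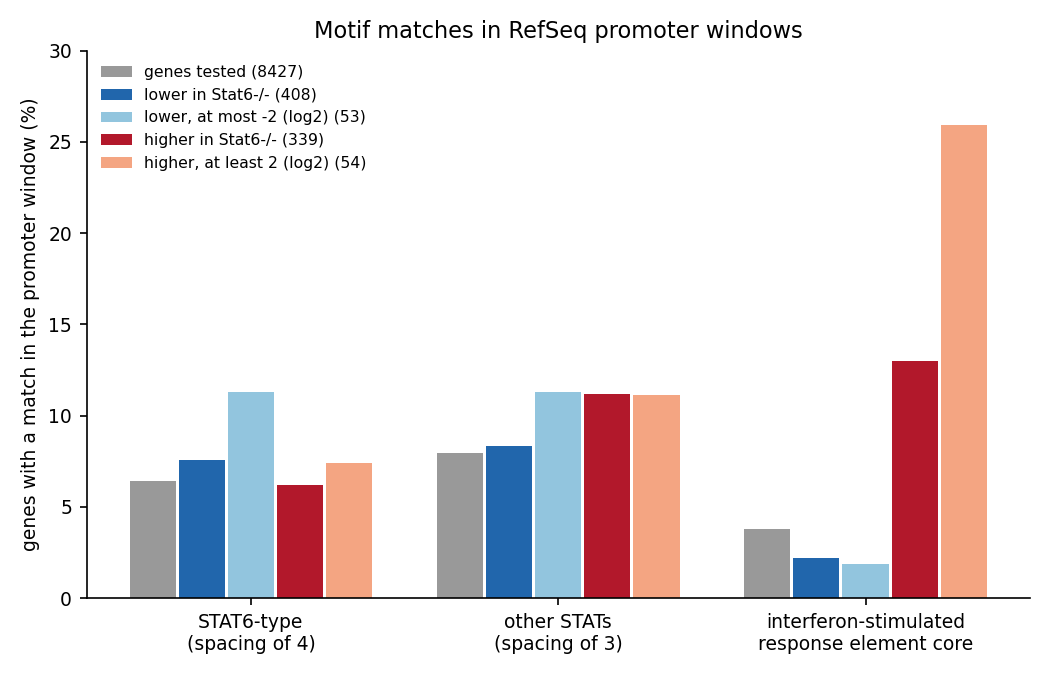
Bars give the percent of genes with a motif match in their RefSeq promoter windows, for all genes tested and for genes lower or higher in Stat6-/- with IL-4, with the number of genes that had a window in brackets. The response element core is in 3.81% of genes tested and in 25.9% of genes higher by at least 2 on the log2 scale.

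Stat6 itself was read first, as a check of the labels. Its signal was 7.34 without and 6.68 with IL-4 in wild type, and 4.54 without and 4.25 with it in Stat6-/-. Both Stat6-/- arrays lay below both wild-type arrays, and with IL-4 the signal was 5.40-fold lower. Signal above the floor remained, and whether the probeset reads exons that the targeting left intact was not tested. Of the 30 genes that flank Stat6, 15 on each side, 13 were tested and 1 passed the rule, the serine hydroxymethyltransferase gene Shmt2 at -1.05. Of the 30 that flank Il4, where the 4get reporter sits, 16 were tested and 2 passed, the kinesin gene Kif3a at 2.83 and the cation transporter gene Slc22a4 at -1.09. In medium the differences of Kif3a and Slc22a4 were 0.46 and -0.93. Over all genes tested with IL-4, 8.84% passed the rule. Whether the reporter allele has a part in these differences was not tested. The Y-linked genes Eif2s3y, Kdm5d and Uty were under the floor and Xist was above it on all 4 arrays.

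The macrophage label held on both arrays. All 17 macrophage markers on the array were above the floor on at least 1 of them, with a median difference of 0.09. Csf1r, the M-CSF receptor, was at 10.25 in wild type and 10.60 in Stat6-/-, and Adgre1, which encodes F4/80, at 9.54 and 10.06. The log2 of the summed marker signal was 13.69 in wild type and 13.97 in Stat6-/-. Of the macrophage markers, 2 passed the rule, Cd14 and Fcgr1, a share of 11.8% beside 8.84% of all genes tested. Both are described with the receptors. Across the 10798 genes that reached the floor on any array, the genotypes with IL-4 correlated at 0.932 and the genotypes in medium at 0.979 (Pearson's r across genes, which are not replicates). Median signals over all probesets lay between 2.23 and 2.29 on the 4 arrays.

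In total 922 genes passed the rule, 8.84% of those tested, with 418 higher in Stat6-/- (4.01%) and 504 lower (4.83%). The median difference over the 10433 genes was -0.0001, and 95% of the differences lay between -1.30 and 1.23. At least 4-fold differences were evenly split, with 74 genes lower and 72 higher. At least 8-fold, 25 genes were lower and 11 higher, and at least 16-fold, 13 and 3. With signals under the floor raised to it, these counts were 69 and 67, 23 and 10, and 10 and 2. The dimmer array was under the floor for 65 of the lower and 48 of the higher genes. The same rule gave 149 of 10299 genes (1.45%) for the genotypes in medium. It gave 37 of 10410 (0.355%) between the cultures of Stat6-/- cells, with 25 higher (0.24%) and 12 lower (0.115%) with IL-4, a comparison that shares the Stat6-/- array with IL-4.

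**Figure D2:**
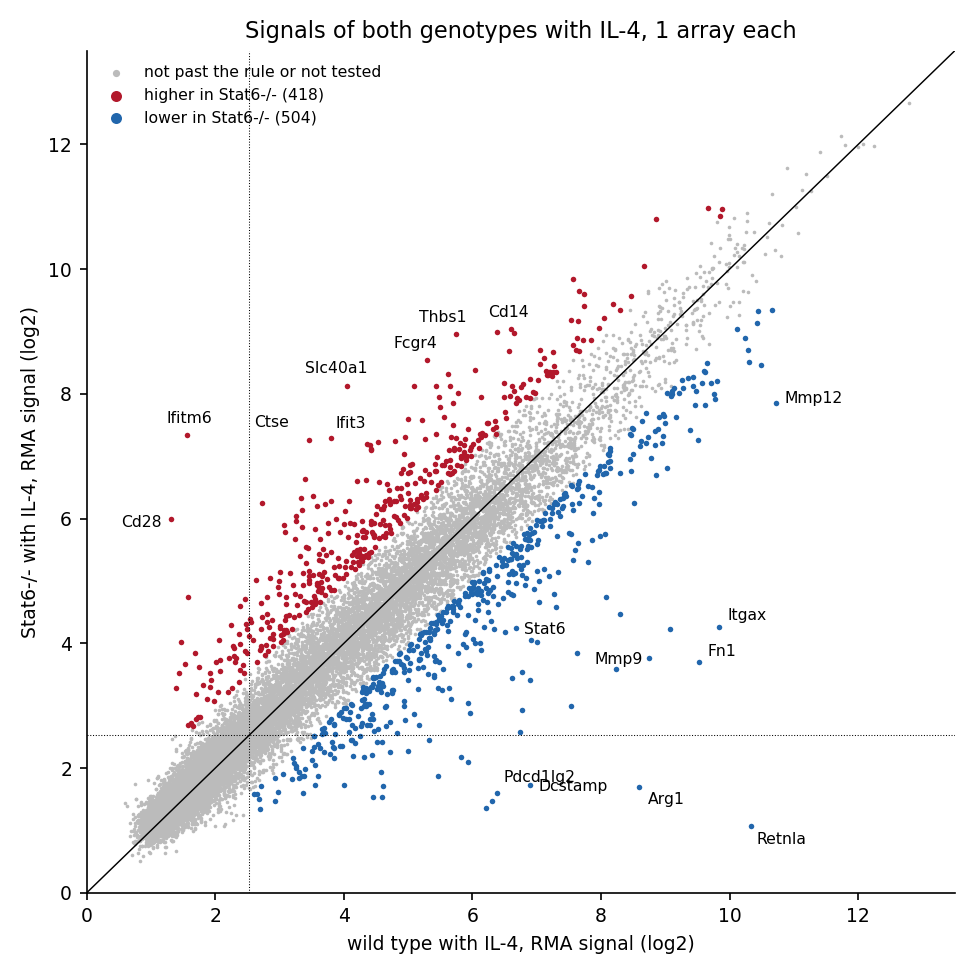
Each point is a gene, with its log2 RMA signal in wild type with IL-4 on the x axis and in Stat6-/- with IL-4 on the y axis; dotted lines mark the floor of 2.52 and the solid line equal signals. Red points are the 418 genes higher and blue points the 504 genes lower in Stat6-/-. Retnla and Arg1 lie at the lower right and Ifitm6 and Cd28 at the upper left.

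Alternative activation genes had the lowest median of the 28 lists, -1.59, with cholesterol synthesis next at -1.38; without the floor the medians were -1.30 and -1.38 and this order turned. Of 40 entries, 39 were on the array and 32 were tested; 21 were lower in Stat6-/-, 2 were higher and 9 did not pass, with a median of -1.59 beside -0.0001 over all genes tested. Retnla, a secreted resistin-like protein, had wild-type signals of 1.20 without and 10.33 with IL-4, and Stat6-/- signals of 1.32 without and 1.08 with it. Arg1, the arginase that splits arginine, had signals of 1.64 and 8.60 in wild type and of 1.63 and 1.69 in Stat6-/-. Both genes were above the floor on the wild-type array with IL-4 and under it on the other 3 arrays. With IL-4 Retnla was at least 223-fold and Arg1 at least 67.4-fold lower in Stat6-/-.

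Other members of the alternative activation list differed in how much signal the deficient cells kept. Chil3, a chitinase-like lectin, was at 4.71 in wild type with IL-4 and under the floor at 2.26 in Stat6-/-, at least 4.57-fold lower. Pdcd1lg2, the inhibitory ligand PD-L2, had signals of 1.63 and 6.39 in wild type and of 1.60 and 1.61 in Stat6-/-, and was at least 14.5-fold lower. Ccl24, a chemokine for eosinophils, had signals of 4.20 and 8.07 in wild type and of 5.00 and 4.75 in Stat6-/- and was 10.0-fold lower with IL-4, while all 4 arrays were above the floor. Irf4, a transcription factor of alternative activation, was at 4.83 in wild type and 2.57 in Stat6-/-, a difference of -2.26. The core genes Mrc1, the mannose receptor, and Pparg, a nuclear receptor of lipid metabolism, did not pass, with differences of -0.39 and -0.75. Ccl17, Ccl22 and Cdh1 were under the floor on both IL-4 arrays.

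The members of this list that were higher in Stat6-/- were Il4ra at 1.49 and F13a1, a coagulation factor subunit, at 2.43. F13a1 had wild-type signals of 5.87 without and 3.24 with IL-4, and Stat6-/- signals of 6.19 without and 5.67 with it, so the wild-type array with IL-4 was the lowest of the 4.

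Bhlhe40, a basic helix-loop-helix repressor, had wild-type signals of 3.05 without and 6.77 with IL-4, and Stat6-/- signals of 2.71 without and 2.93 with it, and was 14.3-fold lower in Stat6-/- with IL-4. Egr2, a zinc-finger factor, had signals of 5.60 and 8.29 in wild type and of 3.97 and 4.47 in Stat6-/- and was 14.1-fold lower. The growth regulator Myc was at 5.95 in wild type and 2.88 in Stat6-/-, a difference of -3.08. Of the 8 SOCS family genes, which damp cytokine signalling, 3 were lower and 0 higher, with a median of -0.04. Socs2 was at 5.94 and 2.10 (at least 10.7-fold lower), Cish at 3.97 and 2.35 (at least 2.73-fold lower) and Socs1 at 4.27 and 2.97 (-1.30) in wild type and Stat6-/- with IL-4. Another probeset of Socs2 gave a smaller difference, of -0.98.

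Upstream of Stat6, of 17 tested genes of the list of IL-4 receptor chains, Janus kinases and STATs, 1 was higher and 1 lower, a share of 11.8% beside 8.84% of all genes tested, with a median of 0.14. Il4ra had wild-type signals of 6.44 without and 4.87 with IL-4, and Stat6-/- signals of 6.71 without and 6.36 with it. The kinase Jak2 was at 6.70 in wild type and 5.36 in Stat6-/- with IL-4, a difference of -1.34.

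**Figure D3:**
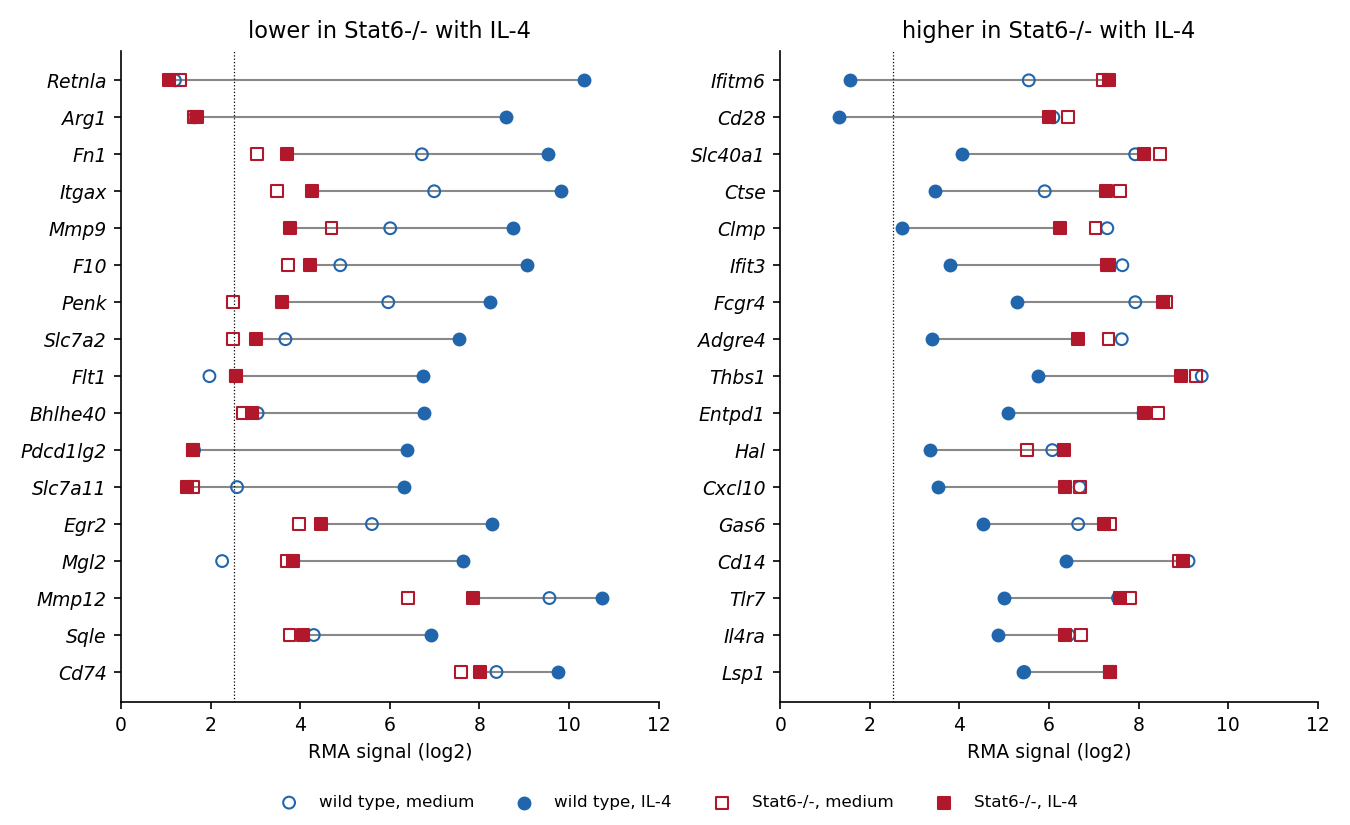
Log2 RMA signals of named genes on the 4 arrays, with circles for wild type, squares for Stat6-/-, open symbols for medium and filled symbols for IL-4; the grey line joins the arrays with IL-4 and the dotted line is the floor of 2.52. Genes lower in Stat6-/- have their filled circle at the right. In Fn1, Itgax, Penk and Mmp12 the open circle also lies well to the right of both squares. It does so by less in other genes, such as Mmp9, Egr2 and F10.

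Adhesion, matrix and cell fusion genes included some of the largest differences among genes above the floor on both arrays. Fn1, the matrix glycoprotein fibronectin, had wild-type signals of 6.72 without and 9.52 with IL-4, and Stat6-/- signals of 3.03 without and 3.70 with it, and was 56.5-fold lower with IL-4. Itgax, the integrin chain CD11c, had signals of 6.99 and 9.83 in wild type and of 3.49 and 4.27 in Stat6-/- and was 47.2-fold lower. In both genes each Stat6-/- array lay below each wild-type array. Of 14 tested integrin chains, 3 were lower (Itgax, Itgb3 and Itgb2) and 2 higher (Itga4 at 2.15 and Itga9, at least 3.40-fold), with a median of -0.07. Itgb2, the beta chain that pairs with CD11c, was at 10.29 in wild type and 8.71 in Stat6-/-, a difference of -1.58.

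Of 15 tested matrix metalloproteinases and inhibitors, 6 were lower and 1 higher, with a median of -0.65. Mmp9, a gelatinase, had wild-type signals of 6.01 without and 8.74 with IL-4, and Stat6-/- signals of 4.70 without and 3.77 with it, and was 31.3-fold lower with IL-4. Mmp12, the macrophage elastase, had signals of 9.56 and 10.73 in wild type and of 6.41 and 7.85 in Stat6-/- and was 7.36-fold lower. Mmp8 (-1.76) and Mmp19 (-1.55) were also lower, and Mmp27 was at least 3.07-fold higher.

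Fusion of macrophages into multinucleated cells and osteoclast function were covered by 22 tested genes, of which 8 were lower and 2 higher, with a median of -0.28. Dcstamp, a membrane protein needed for fusion, had wild-type signals of 3.10 without and 6.90 with IL-4, and Stat6-/- signals of 2.19 without and 1.73 with it, and was at least 20.8-fold lower with IL-4. Ocstamp, which has a like role, was at 5.66 and 3.11 in wild type and Stat6-/- with IL-4. The proton pump subunit Atp6v0d2 was at 8.30 and 6.74 there, a difference of -1.56, and the bone-degrading protease Ctsk at 4.26 and 2.68, a difference of -1.58. The integrin chain Itgb3 was at least 3.01-fold lower. The members that were higher were the transcription factor gene Fos (1.36) and the ATP-gated channel gene P2rx7 (1.08).

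Other genes with large differences had varied roles. F10, which encodes coagulation factor X, had wild-type signals of 4.89 without and 9.06 with IL-4, and Stat6-/- signals of 3.73 without and 4.23 with it, and was 28.6-fold lower with IL-4. Penk, the precursor of enkephalin peptides, had signals of 5.96 and 8.23 in wild type and of 2.49 and 3.59 in Stat6-/-, a difference of -4.64 with IL-4. Flt1, a VEGF receptor, was at 6.74 in wild type and 2.57 in Stat6-/-, just above the floor, or 17.9-fold lower. The ribonuclease gene Rnase2a (6.21 in wild type) was at least 12.9-fold lower, but it belongs to a family of close copies that the array can fail to separate. The cystatin Cst7 was at least 9.83-fold lower, Ankrd55 at least 7.71-fold, the leukocyte receptor gene Tarm1 at least 6.96-fold and the SLAM family receptor gene Slamf8 at least 5.56-fold. The membrane protein gene Tmem26 (-3.49), the heparan sulfate proteoglycan Gpc1 (-3.22), the mitochondrial carbonic anhydrase Car5b (-3.18) and the ubiquitin ligase Rnf128 (-2.31) were above the floor on both arrays.

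Genes of arginine and polyamine metabolism differed in both directions. Of 12 tested, 5 were lower and 2 higher, with a median of -0.46. Besides Arg1, the lower genes were the arginine transporters Slc7a2 and Slc7a1 (-1.07), spermidine synthase Srm (-1.21) and ornithine decarboxylase Odc1 (-1.10). Slc7a2 had wild-type signals of 3.67 without and 7.54 with IL-4, and Stat6-/- signals of 2.51 without and 3.0 with it, and was 23.2-fold lower with IL-4. The higher genes were Smox (1.53) and Sat1 (1.14), which break polyamines down.

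Cholesterol synthesis genes were lower as a group. Of 20 tested, 14 were lower and 0 higher, a share of 70% beside 8.84% of all genes tested. Of the 20, 19 were below 0, and the median was -1.38. Sqle, squalene epoxidase, had wild-type signals of 4.30 without and 6.91 with IL-4, and Stat6-/- signals of 3.76 without and 4.05 with it, a difference of -2.86. Hmgcs1 (-2.03), Fdft1 (-1.95), Cyp51 (-1.94) and Fdps (-1.94), enzymes of the mevalonate, squalene and sterol steps, followed. In medium 0 of the 20 passed the rule, close to the 1.45% of all genes tested in medium. The median of the 20 there was -0.17, beside -0.11 over all genes tested in medium. Of 13 tested genes of sterol efflux and LXR targets, Scd2, a fatty acid desaturase, was lower (-2.26), while Mylip (1.81), which degrades the LDL receptor, and Apoc1 (1.01) were higher, with a median of 0.02. Of 22 tested genes of fatty acid uptake, storage and oxidation, the fatty acid receptor Cd36 (-1.31) and lipoprotein lipase Lpl (-1.29) were lower and 0 were higher, with a median of 0.04. That share, 9.09%, was close to the 8.84% of all genes tested.

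Genes of cystine transport, glutathione and thioredoxin, which keep the cell reduced, were lower in 11 of 22 tested cases and higher in 1, with a median of -0.92. Slc7a11, the cystine transporter, had wild-type signals of 2.59 without and 6.31 with IL-4, and Stat6-/- signals of 1.61 without and 1.47 with it, and was at least 13.8-fold lower with IL-4. The glutathione synthesis subunit Gclm (-2.71), the sulfiredoxin Srxn1 (-2.50) and the thioredoxin reductase Txnrd1 (-2.12) were above the floor on both arrays. The secreted glutathione peroxidase Gpx3 was the member that was higher, at 3.58 in wild type and 6.20 in Stat6-/-. In medium 4 of 21 tested members were lower and 0 higher, with a median of -0.43.

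Energy metabolism genes had medians below 0. Of 34 tested subunits of oxidative phosphorylation, 6 were lower and 0 higher, all 34 were below 0, and the median was -0.69, beside -0.17 in medium. Cytochrome c1 (Cyc1, -1.40), the complex I subunits Ndufv2 (-1.36) and Ndufb8 (-1.13) and the ATP synthase subunit Atp5b (-1.27) had the largest differences. The single differences in this list were small: 28 of its 34 genes did not pass the rule. Of 18 tested glycolysis genes, 5 were lower and 1 higher, with a median of -0.53 beside -0.63 in medium. The lower genes were the phosphofructokinase Pfkp (-2.18), the glucose transporter Slc2a1 (-1.84), Pgk1 (-1.79), Pkm (-1.10) and Aldoa (-1.07), and Pfkfb3, which makes an activator of phosphofructokinase, was higher at 1.0.

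Of 26 tested genes of the response to unfolded protein and to amino acid shortage, 4 were lower and 0 higher. This share of 15.4% stood beside 8.84% of all genes tested, and the median was -0.53. The lower genes were the serine synthesis enzyme Psat1 (-1.39), the endoplasmic reticulum proteins Sdf2l1 (-1.35) and Creld2 (-1.23), and Shmt2. Of 31 tested cell cycle genes, the centromere histone Cenpa (1.57) and the cell cycle inhibitor Cdkn1b (1.35) were higher, the replication clamp Pcna (-1.05) and the cyclin Ccne1 (at least 1.62-fold) were lower, and the median was -0.19. In all, 12.9% of the cell cycle genes passed, beside 8.84% of all genes tested.

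Iron and lipid mediator genes held large differences either way. Slc40a1, the iron exporter ferroportin, had wild-type signals of 7.92 without and 4.05 with IL-4, and Stat6-/- signals of 8.48 without and 8.13 with it, and was 16.9-fold higher in Stat6-/- with IL-4. The transferrin receptor Tfrc, which takes iron up, had signals of 9.76 and 10.49 in wild type and of 8.64 and 8.46 in Stat6-/- and was 4.08-fold lower. The cytosolic aconitase Aco1, which also binds iron-responsive RNA, was lower at -1.22, and the median of the 12 tested iron genes was -0.04. In prostaglandin and leukotriene synthesis, 3 of 12 tested genes were lower, the phospholipase Pla2g4a (-2.28), the cyclooxygenase Ptgs2 (at least 3.04-fold) and Ptges2 (-1.20). Another 2 were higher, the prostaglandin D synthase Hpgds (2.69) and Alox5ap (1.27), which serves leukotriene synthesis, and the median was -0.55.

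Interferon-stimulated genes were the list with the highest median. Of 49 entries, 40 were on the array and all 40 were tested; 22 were higher in Stat6-/- and 0 lower, 39 were above 0, and the median was 1.05. Ifit3, an antiviral protein of the interferon response, had wild-type signals of 7.64 without and 3.80 with IL-4, and Stat6-/- signals of 7.34 without and 7.29 with it, and was 11.2-fold higher in Stat6-/- with IL-4. Cxcl10, an interferon-induced chemokine for T cells, had signals of 6.68 and 3.51 in wild type and of 6.68 and 6.36 in Stat6-/- and was 7.21-fold higher. In both genes the wild-type array with IL-4 was the low array, and the other 3 lay close together. Ifit2 (2.48), the immunity-related GTPase Iigp1 (2.38) and viperin, Rsad2 (2.28), followed.

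In medium 0 of the 40 interferon-stimulated genes passed the rule between the genotypes, close to the 1.45% of all genes tested in medium. Their median there was -0.14, beside -0.11 over all genes tested in medium. Ifit3 has a close copy, Ifit3b, which was also higher with IL-4, and the array can fail to separate such copies. Ifit3 and Cxcl10 are among the genes whose promoters, printed above, hold the response element core. Ifitm6, of the interferon-induced transmembrane family and not in that list, had wild-type signals of 5.55 without and 1.57 with IL-4, and Stat6-/- signals of 7.20 without and 7.33 with it. It was at least 28.1-fold higher in Stat6-/- with IL-4, the largest bound among the higher genes. Its relative Ifitm1 was at 3.35 and 6.14 in wild type and Stat6-/- with IL-4, Gbp7 at 4.41 and 7.18, and Gbp4 was at least 4.57-fold higher.

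**Figure D4:**
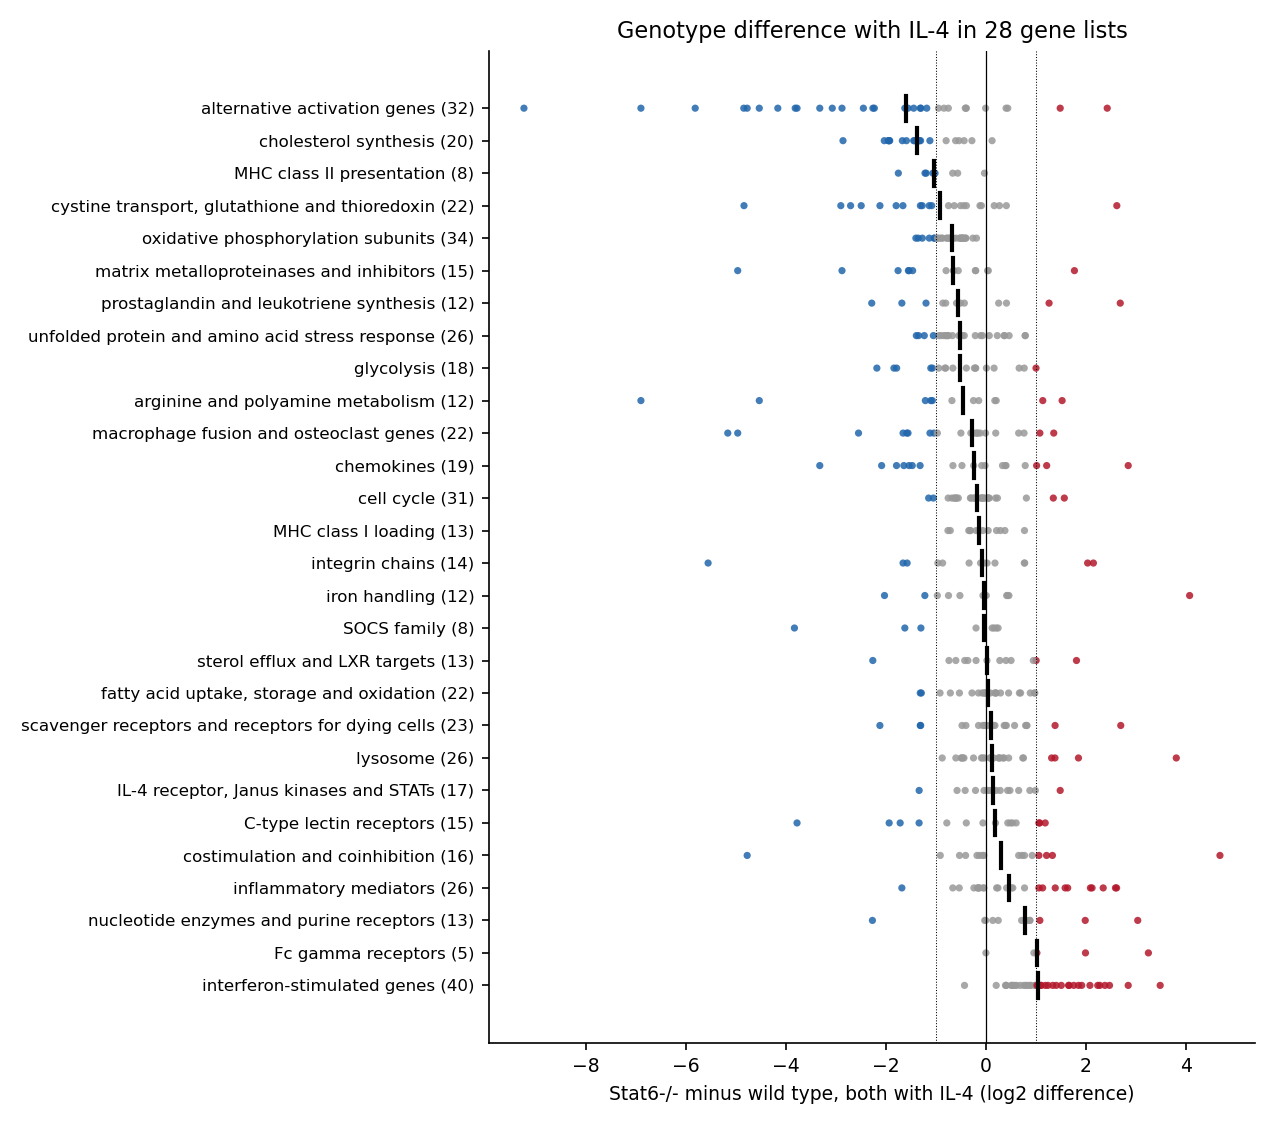
Each point is a tested member of a gene list, at its log2 difference Stat6-/- minus wild type with IL-4; red and blue points passed the rule, grey points did not, and the black bar is the list's median, with the number of tested members in brackets. Medians run from -1.59 for alternative activation genes to 1.05 for interferon-stimulated genes.

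Several receptors for microbial products and for antibodies were higher in Stat6-/-. Of 26 tested inflammatory mediators, 10 were higher and 1 lower (Ptgs2), with a median of 0.47. Cd14, a coreceptor for endotoxin, had wild-type signals of 9.11 without and 6.38 with IL-4, and Stat6-/- signals of 8.89 without and 9.0 with it, and was 6.14-fold higher with IL-4. Tlr7, the receptor for single-stranded RNA, was at 4.99 in wild type and 7.59 in Stat6-/-, and Tlr2, for bacterial lipoproteins, at 4.96 and 7.30. Saa3 was higher by 2.13 and the NF-kappaB cofactor Nfkbiz by 2.09.

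Of the 5 Fc gamma receptor genes tested, which bind IgG or carry its signal, 3 were higher and 0 lower, with a median of 1.02. Fcgr4, an activating receptor, had wild-type signals of 7.93 without and 5.29 with IL-4, and Stat6-/- signals of 8.62 without and 8.54 with it, and was 9.54-fold higher with IL-4. The high-affinity receptor Fcgr1 was at 7.65 and 9.65 in wild type and Stat6-/- with IL-4, and the inhibitory receptor Fcgr2b at 7.84 and 8.87. The shared signalling chain Fcer1g was at 9.96 on both arrays. The Fc gamma receptor genes are close relatives, so the array may not keep their transcripts fully apart.

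Antigen presentation genes were read by class. Of 8 tested MHC class II presentation genes, 5 were lower and 0 higher, a share of 62.5% beside 8.84% of all genes tested. All 8 were below 0, and the median was -1.04, beside -0.52 in medium. Cd74, the invariant chain, had wild-type signals of 8.38 without and 9.76 with IL-4, and Stat6-/- signals of 7.58 without and 8.0 with it, a difference of -1.75. H2-Ea (-1.22), H2-Aa (-1.19), H2-Ab1 (-1.06) and H2-Eb1 (-1.02), chains of the class II molecules, were the others. H2-Ab1 and H2-Eb1 did not pass with quantile normalization applied again (-0.98 and -0.91) or with the intensity trend removed (-0.97 and -0.92). H2 genes are similar enough for the array to confuse some of them. Of 13 tested genes of MHC class I loading, 0 passed the rule, with a median of -0.15. With 8.84% passing over all genes tested, a count of 0 in so few genes does not set this list apart. Of 16 tested genes of costimulation and coinhibition, 4 were higher and 1 lower (Pdcd1lg2), with a median of 0.31.

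The costimulation gene with the largest difference was Cd28, a receptor best known from T cells. It had wild-type signals of 6.10 without and 1.31 with IL-4, and Stat6-/- signals of 6.43 without and 6.0 with it, and was at least 11.1-fold higher in Stat6-/- with IL-4. Of 13 T cell markers on the array, 5 were tested and 2 passed, Cd28 and Cd4, the latter at 3.17 in wild type and 5.13 in Stat6-/-. The defining T cell genes Cd3d, Cd3e and Cd3g were under the floor on both IL-4 arrays. The log2 of the summed T cell marker signal with IL-4 was 7.51 in wild type and 8.06 in Stat6-/-, a gap that came from Cd28 and Cd4. In medium the sums were 8.66 in wild type and 8.13 in Stat6-/-. The inhibitory receptor Vsir (1.33) and the ligands Icosl (1.22) and Cd86 (1.06) were the others that were higher.

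Chemokine and lectin genes were split. Of 19 tested chemokines, 7 were lower and 3 higher, with a median of -0.24. The lower ones included Ccl24, Cxcl13 (4.51 in wild type, at least 3.96-fold lower), Cxcl14 (-1.79) and Pf4 (-1.64), and the higher ones were Cxcl10, Ccl3 (1.22) and Ccl12 (at least 1.82-fold). Of 15 tested C-type lectin receptors, 4 were lower and 3 higher, with a median of 0.19. The lower ones were Mgl2 (-3.78), Clec5a (-1.94), the fungal glucan receptor Clec7a (-1.34) and Clec4b1 (at least 2.10-fold). The higher ones were Clec4n (1.19), Clec4d (1.08) and Clec4e (1.06), which recognise microbial and mycobacterial sugars and lipids.

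Of 23 tested scavenger receptors and receptors for dying cells, 3 were lower and 2 higher, with a median of 0.11. Gas6, the ligand that bridges dying cells to TAM receptors, had wild-type signals of 6.65 without and 4.53 with IL-4, and Stat6-/- signals of 7.37 without and 7.23 with it, while Axl, a receptor of Gas6, was lower at -1.31. Scarb2 was higher at 1.39, and Timd4, a phosphatidylserine receptor, was at least 3.44-fold lower. Of 26 tested lysosome genes, 4 (15.4%, beside 8.84% of all genes tested) were higher and 0 lower, with a median of 0.13. They were the proteases cathepsin E (Ctse, 3.81), Ctsh (1.85), Ctsc (1.38) and Lgmn (1.32). Of 13 tested nucleotide enzymes and purine receptors, 3 were higher and 1 lower, with a median of 0.79. Entpd1, the ectonucleotidase CD39, was at 5.09 in wild type and 8.13 in Stat6-/-, and P2ry1, an ADP receptor, was lower at -2.27.

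The other genes that were most strongly higher in Stat6-/- had varied roles. Clmp, an adhesion molecule of cell junctions, had wild-type signals of 7.30 without and 2.73 with IL-4, and Stat6-/- signals of 7.04 without and 6.25 with it, and was 11.5-fold higher with IL-4. Thbs1, the matrix glycoprotein thrombospondin, had signals of 9.41 and 5.75 in wild type and of 9.29 and 8.96 in Stat6-/- and was 9.26-fold higher. The adhesion GPCR Adgre4 (3.24), the histidine-degrading enzyme Hal (2.99), the ubiquitin ligase Rnf144b (2.82), Nxpe5 (2.79) and the endosomal sodium-proton exchanger Slc9a9 (2.69) were also among them. Where wild type was under the floor, the kynurenine enzyme Kmo was at least 4.66-fold higher, Ago4 at least 4.22-fold and the transcriptional regulator Id3 at least 3.25-fold.

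The genotypes were also measured in medium, on a pair of arrays that shares no array with the IL-4 pair. There 31 genes were higher in Stat6-/- (0.301% of those tested) and 118 lower (1.15%). Of the 504 genes lower with IL-4, 49 were also lower in medium, which is 9.72% of the first list and 41.5% of the second. Of the 418 genes higher with IL-4, 11 were also higher in medium, or 2.63% and 35.5%. These counts moved by over 1.5 times to 32 lower genes with the intensity trend removed and to 17 higher genes with quantile normalization applied again. Over the 504 lower genes the median difference in medium was -0.39, and 82.5% were below 0, beside -0.10 and 62.9% for all genes tested with IL-4. Over the 418 higher genes it was 0.07, and 56.5% were above 0, beside 36.9% of all genes tested. Across the 9934 genes tested in both cultures the differences correlated at r = 0.333 and rho = 0.283, a description across genes. Each of the 4 groups is 1 culture of cells, and the cells of a genotype in both cultures may come from the same bone marrow, which the labels do not say.

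The genes with the largest differences in both cultures were lower in Stat6-/-. The log2 difference of Fn1 was -3.68 in medium and -5.82 with IL-4, that of Itgax -3.50 and -5.56, and that of Penk -4.64 with IL-4, while in medium, where its Stat6-/- signal was under the floor, Penk was at least 10.9-fold lower. Mmp12 was at -3.15 and -2.88, so that its difference in medium was no smaller than with IL-4. Cxcl13, a chemokine for B cells, had wild-type signals of 5.87 without and 4.51 with IL-4, and Stat6-/- signals of 1.91 without and 2.42 with it. Both Stat6-/- arrays were under the floor, and in medium it was at least 10.2-fold lower. Atp6v0d2 (-2.31 in medium), Rnf128 (-1.72), Egr2 (-1.63), and the GTPase gene Rhoc (-1.53) were lower in both cultures as well. Ctsk also passed in both, but its Stat6-/- signal in medium was under the floor and its bound there, at least 1.99-fold, falls short of the rule.

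Among the genes higher in both cultures, Lsp1, a leukocyte actin-binding protein, had wild-type signals of 5.45 without and 5.43 with IL-4, and Stat6-/- signals of 7.37 without and 7.35 with it. Its difference was 1.92 in either culture, with both wild-type arrays low and both Stat6-/- arrays high. Ctse (1.68 in medium), Ifitm6 (1.65), the cytokine receptor chain Lifr (1.53 in medium and 2.20 with IL-4), Kmo (1.38), the matrix protein gene Tgfbi (1.37) and the signalling adaptor Eps8 (1.16) also passed in both. Above the floor on both arrays in medium, Cd28 differed there by 0.33 and Cxcl10 by 0.00. Retnla, Arg1 and Pdcd1lg2 were under the floor on both medium arrays, so no difference could be read for them in medium.

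**Figure D5:**
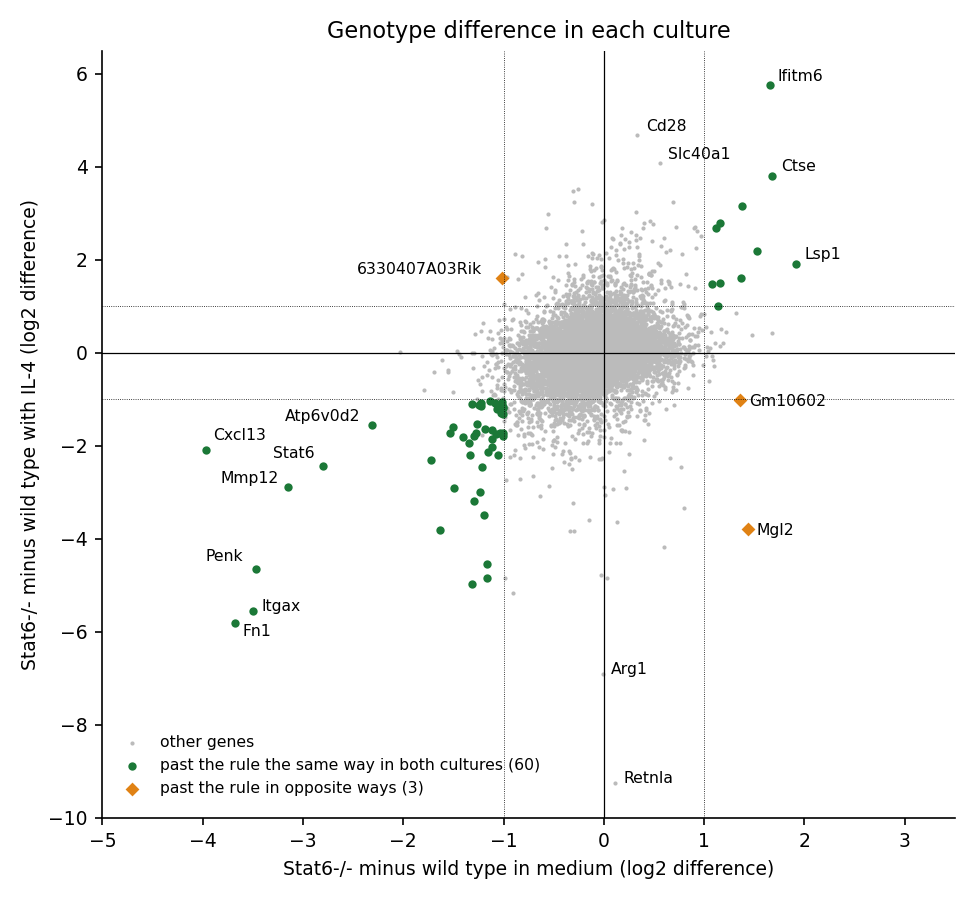
Each point is a gene tested in either culture, with its log2 difference Stat6-/- minus wild type in medium on the x axis and with IL-4 on the y axis; dotted lines mark the rule of size. Green points are the 49 lower and 11 higher genes past the rule the same way in both cultures. Orange diamonds are the 3 past it in opposite ways. Retnla and Arg1, under the floor on both medium arrays, are plotted at their raw medium differences of 0.12 and -0.01.

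Markers of other cells were read for what the sort might have kept. Of 9 dendritic cell markers, 4 were tested and 2 were lower in Stat6-/-, Itgax and Batf3 (4.96 in wild type and 3.78 in Stat6-/-). Besides these, the 2 other tested markers were above 0, by at most 0.52. Flt3, Xcr1, Clec9a, Siglech and Ccr7 were under the floor on both IL-4 arrays. The log2 of the summed signal was 10.17 in wild type and 8.33 in Stat6-/-. Itgax, at 9.83 and 4.27, made up most of the wild-type sum, and the lower sum in Stat6-/- came from Itgax. Of 12 neutrophil and precursor markers, 3 were tested and Mmp8 was lower, while S100a8, S100a9 and Ly6g were under the floor on both. Of 10 fibroblast markers, 5 were tested and Postn was lower, from 3.55 in wild type to 1.72, with summed signals of 5.86 and 5.72. Of the B cell, basophil and mast cell, eosinophil, NK cell and erythroid markers, 0 passed the rule, and at most 2 of each list were tested. In RNA from a whole sort, fewer cells of a type and less RNA per cell cannot be told apart.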

How the data were processed

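The authors deposited 1 log2 signal per probeset for each of the 4 arrays. Per the submitters' processing notes RMA in Affymetrix Expression Console produced them; the sources used here give no version and no genome build of the array. RMA corrects background, sets the arrays to common quantiles and draws low signals together, so differences of dim genes are understated. The log base was taken from the values. Probesets were named from the platform annotation: 21789 had 1 symbol, 1621 several and 12147 none there. Of the first, 21698 matched RefSeq by Entrez identifier, which changed 0 symbols.

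The floor is the median of single-gene probesets over the 4 arrays. Of 772 entries in 28 gene lists and 10 marker lists, 712 matched a gene, 1 by an older symbol. Members, lists and tests were chosen with earlier results of these data known. Named were Stat6 and 13 core genes, the 15 largest differences each way above the floor, the 12 largest bounds each way, up to 5 members past the rule per list with any against its median, the 10 largest each way in both cultures, genes opposite between cultures, and neighbours of Stat6 and Il4 past the rule. Marker genes and members of small counts are named beside these. Other genes were chosen after their values were seen. In all, 7 alternatives were tried. The rule was tested on simulated data. Python 3.11.15 with pandas 2.3.3, numpy 2.4.6 and statsmodels 0.14.6 was used.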

Additional observations from a re-analysis of the deposited data

Results flagged for a closer look

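Of the genes past the rule of size, 3 had opposite directions in the 2 cultures, which share no array. Mgl2, a galactose-binding lectin of alternatively activated macrophages, was lower in Stat6-/- with IL-4, at -3.78. In medium, where its wild-type signal was under the floor, it was at least 2.25-fold higher. Its wild-type signals were 2.26 without and 7.63 with IL-4, and its Stat6-/- signals 3.69 and 3.85, so the deficient arrays lay between the wild-type ones. Its close copy Clec10a, which the array can fail to separate from it, differed by 1.67 in medium and by 0.44 with the cytokine. The gene 6330407A03Rik was higher with IL-4, at 1.61, and lower in medium, at -1.01. Gm10602 was lower with IL-4, at -1.01, and higher in medium, at 1.36, and its Stat6-/- signal with IL-4 was just under the floor. With 1 array a group these differences between cultures were not tested.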

How the results depend on the processing

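No paired analysis was possible because each group had 1 array. The 7 alternatives were no floor, a floor at the 75th percentile, another round of quantile normalization, a shift of the arrays to one median, the intensity trend removed by lowess, signals raised to the floor and the mean of all probesets of a gene. Over them 330 to 442 genes were higher and 384 to 547 lower in Stat6-/- with IL-4, each within 1.5 times the reported count, and 0 genes changed direction. The share of higher genes among those past the rule lay between 41.3% and 48.7%, beside 45.3%. Counts in both cultures under these alternatives were added after seeing the data. They gave 17 higher genes with quantile normalization applied again (11 as reported) and 32 lower genes with the intensity trend removed (49 as reported); the cause was not tested. Of the list medians, 193 of the values under alternatives stayed within their spread and 3 moved: alternative activation genes to -1.30 with no floor and -2.25 with the 75th percentile as floor, and costimulation genes to 0.69 with the latter. Of the named genes' values 23 moved, 20 of them dim genes with signals raised to the floor, and 0 reversed. Near the threshold, Fcgr2b (0.97), Pfkfb3 (0.95), Apoc1 (0.96) and Ccl12 (0.97) fell short of the rule with arrays shifted to one median, Apoc1 (0.98), Ccl12 (0.98), Pcna (-0.98) and Ndufv1 (-0.98) with the intensity trend removed, and Ndufv1 (-0.96) with quantile normalization applied again. Signals near the floor limit the size of such differences.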

Other observations

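Of the 118 genes lower in Stat6-/- in medium, 79.7% were also below 0 with IL-4, with a median difference of -0.80 there. Of the 31 genes higher in medium, 77.4% were above 0 with IL-4, with a median of 0.44. Of the genes past the rule with IL-4, 68 had several single-gene probesets; for 43 of them another probeset passed the rule the same way, and for 0 in the opposite way.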
